A study of Mus musculus with 18 samples.

Results

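The comparison described here is that of mouse dendritic cells given lipopolysaccharide (LPS) together with the chelator EGTA and the same kind of cells given LPS alone. Its members were chosen by treatment and genotype, not by any measured value: the 5 wild type arrays with LPS and EGTA and the 5 wild type arrays with LPS alone, 10 of the 18 arrays of the series, matched by time at 2, 4, 6, 12 and 24 h. All of these cells were C57BL/6 wild type, from mice of 6 to 8 weeks, grown from bone marrow in the supernatant of B16 tumour cells that had been transduced to make GM-CSF. Both groups received smooth LPS at 1 µg/ml, and the second also received EGTA at 2 mM. Arrays of Cd14-deficient cells also appear below, 5 with LPS for the same times, at a dose not recorded here, and 1 without LPS. The remaining arrays are 1 each of wild type cells without LPS, labelled with or without EGTA and harvested 24 h after plating. The treatment text of the unstimulated array titled EGTA does not mention the chelator, so its values are given as those of the array so labelled.

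LPS is sensed by TLR4 with its partner MD-2, and CD14 at the cell surface hands LPS to that complex. TLR4 then signals through MyD88 to NF-kB and MAP kinases, which raise inflammatory cytokines, and through TRIF to IRF3 and interferon-beta, which raise the interferon-stimulated genes. EGTA binds calcium outside the cell, and it also binds other divalent metals such as zinc. Calcium entry can activate the phosphatase calcineurin and its substrate NFAT, while calcium held in the endoplasmic reticulum (ER) is needed by the chaperones that fold secreted proteins. Cadherins and integrins need extracellular calcium or magnesium to adhere.

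The sequences below show, for 4 groups of genes that the comparison turns on, the 250 bases before the annotated start in RefSeq (mouse build GRCm38.p6), 5′ to 3′ along the gene, with matches to the group's known element in capitals. Metallothionein genes carry metal response elements, which were searched for as TGCACNC or TGCGCNC. Mt1 (chr8:94178839-94179088, + strand) had 1 match and Mt2 (chr8:94172368-94172617, + strand) had 3.
Mt1: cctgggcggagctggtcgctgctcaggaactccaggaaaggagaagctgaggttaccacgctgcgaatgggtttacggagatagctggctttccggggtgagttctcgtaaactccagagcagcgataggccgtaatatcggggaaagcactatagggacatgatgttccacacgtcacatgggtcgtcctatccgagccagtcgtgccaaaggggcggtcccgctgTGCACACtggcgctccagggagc
Mt2: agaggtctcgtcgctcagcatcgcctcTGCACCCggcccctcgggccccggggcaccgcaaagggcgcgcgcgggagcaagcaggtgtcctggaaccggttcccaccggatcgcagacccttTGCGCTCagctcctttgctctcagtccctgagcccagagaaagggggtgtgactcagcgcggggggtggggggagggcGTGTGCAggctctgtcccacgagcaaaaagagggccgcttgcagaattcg
Genes of the amino acid response carry elements bound by ATF4, searched for as TGATGNAA. Aars (chr8:111033592-111033841, + strand), which encodes alanyl-tRNA synthetase, had 1 match on the opposite strand.
Aars: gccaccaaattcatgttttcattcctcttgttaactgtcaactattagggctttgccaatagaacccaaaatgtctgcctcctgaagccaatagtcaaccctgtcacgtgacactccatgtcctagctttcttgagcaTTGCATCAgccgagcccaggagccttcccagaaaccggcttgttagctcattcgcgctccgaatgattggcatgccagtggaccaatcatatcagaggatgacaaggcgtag
Genes of ER chaperones carry the ER stress element, searched for as CCAAT and CCACG with 9 bases of any kind between them. Hspa5 (chr2:34771840-34772089, + strand), the ER chaperone BiP, and Pdia6 (chr12:17266339-17266588, + strand), a protein disulfide isomerase, had 1 match each.
Hspa5: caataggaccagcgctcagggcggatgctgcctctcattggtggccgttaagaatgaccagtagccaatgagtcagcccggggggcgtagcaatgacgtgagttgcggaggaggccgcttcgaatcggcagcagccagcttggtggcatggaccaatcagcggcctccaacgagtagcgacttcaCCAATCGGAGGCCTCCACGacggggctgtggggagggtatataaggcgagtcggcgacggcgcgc
Pdia6: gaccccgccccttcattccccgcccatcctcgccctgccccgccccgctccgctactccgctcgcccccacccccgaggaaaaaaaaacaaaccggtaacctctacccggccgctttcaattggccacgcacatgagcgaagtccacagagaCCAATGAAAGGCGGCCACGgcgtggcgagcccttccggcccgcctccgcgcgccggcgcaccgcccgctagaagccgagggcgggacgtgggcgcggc
Inflammatory cytokine genes carry kappa B sites, the binding sites of NF-kB, searched for as GGG and TTTCC with 2 bases of any kind between them. Cxcl1 (chr5:90890995-90891244, + strand), a neutrophil chemokine, had 2 matches and Il6 (chr5:30012864-30013113, + strand) had 1.
Cxcl1: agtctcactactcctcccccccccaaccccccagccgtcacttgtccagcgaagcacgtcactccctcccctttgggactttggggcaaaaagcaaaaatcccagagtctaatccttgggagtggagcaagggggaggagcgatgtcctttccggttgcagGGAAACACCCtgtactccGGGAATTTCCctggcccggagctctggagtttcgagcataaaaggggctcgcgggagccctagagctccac
Il6: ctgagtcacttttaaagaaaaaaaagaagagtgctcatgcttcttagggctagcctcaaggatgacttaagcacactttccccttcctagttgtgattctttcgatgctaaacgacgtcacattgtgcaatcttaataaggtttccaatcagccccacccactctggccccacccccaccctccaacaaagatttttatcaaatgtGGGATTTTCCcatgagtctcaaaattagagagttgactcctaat
Both strands were searched, and matches on opposite strands at the same place were counted once each. Of 32851 promoters in the table, 21.4% held the metal response element, 3.45% the ATF4 element, 0.113% the ER stress element and 1.41% the kappa B site in the same 250 bases. A match describes the letters only and is not a measured binding site.

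Each array gave 1 intensity for each of 22690 probe sets, and a level below is the log2 of that intensity plus 16 after the arrays had been brought to 1 distribution, so that changes of dim genes are understated and the lowest possible level is 4. The 10 arrays had median intensities of 77.9 to 110 before that step. Their 3′ to 5′ ratios, a sign of RNA quality, were 1.05 to 1.19 for actin, and the RNA integrity number was 9.7 or above on 8 arrays but 8.8 and 8.7 on the EGTA arrays of 12 and 24 h. The 2 arrays of a time correlated at 0.981 to 0.986. Each condition and time was measured on 1 array, and no label says that the arrays came from separate cultures or animals. The 5 times therefore served as the replicates, and p-values measure the spread of the paired differences, which may be technical. The number of arrays limits the precision. As a check of the cell type, the dendritic cell integrin Itgax (CD11c) read 11.22 to 12.08 on the 10 arrays and the invariant chain Cd74 read 13.38 to 13.62. The cultures also held strong signal of genes shared with macrophages and granulocytes, such as Csf1r at 12.42 to 13.14 and S100a8 at 10.97 to 13.63.

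EGTA changed the dendritic cells' transcriptome under LPS moderately and in both directions. Lists of ER folding, the amino acid response and sterol synthesis had calls on the higher side alone, the NF-kB list had 15 falls and 3 rises among 36 genes, and Nos2, Mt1 and Mt2 fell, while interferon-stimulated genes passed the test about as often as all genes did. The gene lists were chosen with earlier results of these data known, so their shares of calls describe them and are not a test. Of 7240 genes tested, 1031 passed the threshold (limma with time as a block, Benjamini-Hochberg adjusted p under 0.05), which is 14.2% of the genes. Of these, 563 were higher with EGTA (7.78%) and 468 lower (6.46%). At least 2-fold mean differences were found in 37 of the higher and 33 of the lower genes, together 0.967% of the genes tested. At the single times 71 to 220 genes were at least 2-fold apart, and without LPS 204 were, on 1 array each. Among the called genes, 975 had 1 sign at all 5 times, which 27.9% of all genes tested had. Levels that did not overlap between the conditions were found in 142 of the called genes and in 2.13% of all genes tested. Without the arrays of 4, 6 or 12 h the count of called genes was 521, 409 or 439, and with the RNA integrity number in the fit it was 610. That fit ended the call of 35 of the 122 named genes that passed, and it made 22 estimates smaller by over 1.5 times, those of Ccl24, Nos2, Mt1 and Mt2 among them, and none larger by as much. Without scaling the arrays to each other 864 genes passed, of which 71.6% were higher, against 54.6% of the calls here.

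The 12 largest rises with 1 sign at all times were led by a chemokine and by receptors. Ccl24 (eotaxin-2), a chemokine for eosinophils, read 7.47, 7.33, 6.82, 6.86 and 6.28 at 2, 4, 6, 12 and 24 h of LPS and 8.3, 8.9, 9.88, 11.14 and 11.77 with EGTA. All EGTA levels lay above all levels without it, and the gap was wider at each later time. The mean difference was 3.05 ± 0.58 (SE over 5 times, log2), an 8.26-fold difference with an adjusted p of 0.012 (limma), which was 0.0549 without the 12 h arrays. The differences of 12 and 24 h, 4.28 and 5.49, were those of the EGTA arrays with lower RNA integrity, and with the RNA integrity number in the fit the rise was 1.54 (adjusted p = 0.0477). On the unstimulated arrays Ccl24 read 6.61, and 5.85 on the array labelled EGTA.

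Tgfbr1, the type I receptor for TGF-beta, read 10.41, 9.28, 9.72, 10.65 and 10.44 with LPS and 11.68, 11.91, 12.33, 12.59 and 11.96 with EGTA. Without LPS it read 11.47, so the cells with LPS alone lay below that level at all 5 times and those with EGTA above it. The difference was 1.99 ± 0.19 (SE, n = 5 times; 3.98-fold; limma adjusted p = 0.000727). Gpr31b, a G protein-coupled receptor gene, read 5.86, 6.83, 7.66, 6.94 and 5.79 with LPS and 7.38, 9.36, 9.56, 10.0 and 9.42 with EGTA, a rise of 2.53 ± 0.27. Its only overlap was the 2 h EGTA level, which lay under the 6 h level without EGTA.

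Dnase1l3, a secreted nuclease that needs calcium to cut DNA, was dim with LPS at 4.2 to 5.93, near the lowest possible level. With EGTA it read 5.25 to 7.17, a rise of 1.91 ± 0.31. Cd244a, a receptor of the SLAM family, and Cd93, a lectin-like receptor of myeloid cells, shared a time course. Cd93 read 10.52, 9.61, 9.35, 8.73 and 7.48 with LPS and 10.73, 10.24, 10.56, 10.86 and 10.66 with EGTA. It declined with time in LPS alone and stayed near its unstimulated level of 11.08 with EGTA. The mean rises of Cd244a and Cd93 were 1.69 ± 0.39 and 1.47 ± 0.37, and dimmer probe sets of these genes gave 1.78 and 0.64. Both calls were lost without the 6 h or the 12 h arrays (limma adjusted p of 0.0723 and 0.098 for Cd244a, 0.0858 and 0.118 for Cd93), that of Cd93 also without those of 4 h (0.0501). With the RNA integrity number in the fit the rises were 0.62 and 0.48 and did not pass.

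The other members of that group were the Src-like adaptor Sla (1.58 ± 0.17), the adhesion protein Mpzl2 (1.39 ± 0.17), the pseudokinase Trib3 (1.33 ± 0.22), the ERK phosphatase Dusp6 (1.33 ± 0.17), the MHC class I-like gene H2-Q10 (1.31 ± 0.14) and the Ets factor Spic (1.31 ± 0.24). H2-Q10 is close in sequence to other class I genes, and its probe set may also read those. Sla read 9.27, 7.88, 7.99, 8.76 and 8.36 with LPS and 9.97, 9.51, 10.11, 10.27 and 10.31 with EGTA, with no overlap. Trib3, which ATF4 induces, read 5.88 to 7.47 with LPS and 7.65 to 7.95 with EGTA. The levels of Sla, Mpzl2 and Trib3 did not overlap between the conditions, while those of Dusp6, H2-Q10 and Spic did. Dusp6 also differed by 1.29 between the unstimulated arrays.

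**Figure D1:**
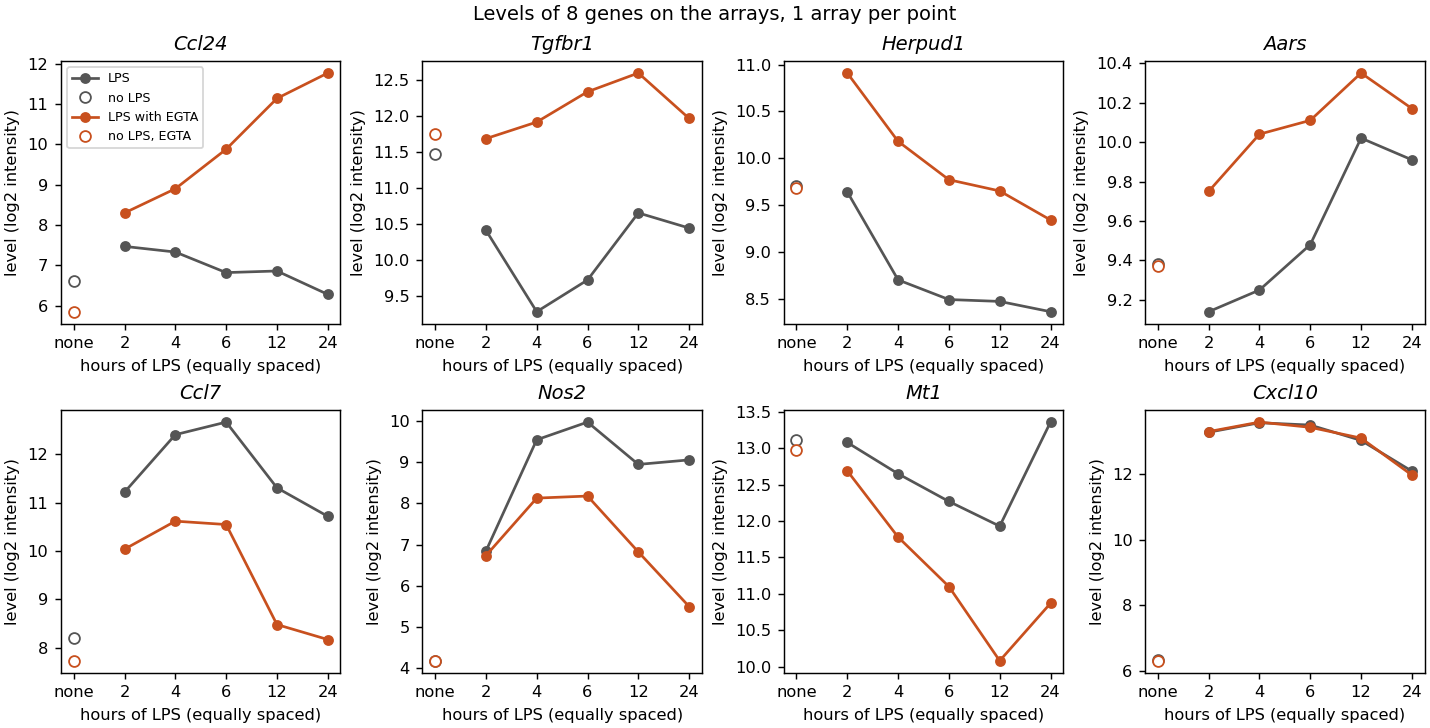
Level of 8 genes (log2 intensity, vertical) by hours of LPS (horizontal, equally spaced), with LPS alone in grey and LPS with EGTA in orange, 1 array per point, and open points for the arrays without LPS. Ccl24 reaches 11.77 with EGTA and stays at or below 7.47 without it, and Cxcl10 follows the same course in both conditions.

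The 12 largest falls were led by chemokines, a growth factor and secreted regulators, and apart from Kcnn4, Mt1 and Mt2 these genes stood above the unstimulated array at all 5 times of LPS alone. Ccl7, a chemokine for monocytes, read 11.22, 12.41, 12.67, 11.31 and 10.72 with LPS and 10.04, 10.62, 10.55, 8.48 and 8.17 with EGTA, against 8.21 without LPS. Its EGTA levels of 12 and 24 h lay close to that unstimulated level, and no EGTA level reached the lowest level without EGTA. The difference was -2.09 ± 0.20 (SE, n = 5 times; 4.27-fold; limma adjusted p = 0.000727).

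Fst, which encodes the activin-binding protein follistatin, read 7.53, 8.07, 8.36, 8.59 and 9.26 with LPS and 5.99, 6.28, 6.43, 6.3 and 6.49 with EGTA. It climbed at each time in LPS alone and stayed within 0.5 of its first level with EGTA, a difference of -2.07 ± 0.16 (limma adjusted p = 0.000399). Timp1, an inhibitor of matrix metalloproteinases, read 8.63 to 9.22 with LPS and 7.04 to 7.55 with EGTA, again with no overlap, a difference of -1.61 ± 0.13. Csf3, the growth factor G-CSF, read 7.23 to 8.84 with LPS and 6.02 to 6.71 with EGTA, a difference of -1.66 ± 0.13.

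Nos2, the inducible nitric oxide synthase, read 6.84, 9.55, 9.98, 8.95 and 9.06 with LPS and 6.73, 8.13, 8.18, 6.82 and 5.49 with EGTA. The difference was -0.10 at 2 h and -3.57 at 24 h, where the conditions were furthest apart. Its mean difference of -1.80 ± 0.39 (3.49-fold; limma adjusted p = 0.0179) lost its call without the arrays of 6 h (adjusted p = 0.0657) or 12 h (0.0726), and with the RNA integrity number in the fit it was -0.94 and did not pass (0.14). Kcnn4, a potassium channel that opens on intracellular calcium, read 10.47, 9.7, 9.97, 9.7 and 9.84 with LPS and 9.58, 8.15, 8.12, 7.67 and 7.76 with EGTA. Its levels did not overlap, and the difference was -1.68 ± 0.16 (limma adjusted p = 0.000722).

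The remaining large falls were those of Cxcl1 (-1.41 ± 0.11), the gap junction protein Gja5 (-1.39 ± 0.32), U90926 (-1.37 ± 0.14), Mt1 and Mt2 (both described below) and the calcium-dependent adhesion protein Pcdh7 (-1.30 ± 0.18). Gja5 and Pcdh7 were dim on all arrays, at or below 7.5 with LPS. The call of Gja5 was lost without the arrays of 6 h (limma adjusted p = 0.0837) or 12 h (0.0836) and with RNA integrity in the fit (0.207). Cxcl1 read 12.84, 12.07, 11.38, 10.92 and 11.16 with LPS and 12.03, 10.34, 9.91, 9.45 and 9.62 with EGTA, against 5.71 without LPS. It stood far above the unstimulated level in both conditions, and it was lower with EGTA at all 5 times.

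Genes of the amino acid response, which ATF4 drives when amino acids are short or the ER is stressed, were higher with EGTA. Of 22 list members tested, 16 rose and 0 fell (limma, with 19 and 0 at an unadjusted p under 0.05). Their share was 72.7%, against 14.2% of all genes. The median difference was 0.45, where all genes tested had 0.01. The list had 26 members on the array, and 4 did not pass the filter on dim genes. Aars, whose promoter is printed above, read 9.14, 9.25, 9.48, 10.02 and 9.91 with LPS and 9.75, 10.04, 10.11, 10.35 and 10.17 with EGTA, a rise of 0.52 ± 0.08 (limma adjusted p = 0.00578). The levels overlapped across times, but EGTA was the higher at each time. Atf5, a transcription factor of the same pathway, rose by 0.50 ± 0.07 with no overlap, and Mthfd2, a mitochondrial folate enzyme, by 0.60 ± 0.07. Ddit3, which encodes the transcription factor CHOP, rose by 0.66 ± 0.09.

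Among the amino acid genes with the largest rises, asparagine synthetase Asns (1.19), the amino acid transporter Slc7a5 (1.04) and the glutathione-degrading enzyme Chac1 (0.95) are named after their values were seen. At 2, 4 and 6 h the 22 members had median differences of 0.43, 0.61 and 0.61, at 12 and 24 h of 0.29 and 0.26, and on the unstimulated arrays of -0.01. Without the arrays of 4, 6 or 12 h 10 members rose, in the fit of 2, 4 and 6 h alone 15 rose, and in that of 12 and 24 h alone 2 rose. The ATF4 element was found in 4 of the 14 risen members with a promoter in the table (Aars, Asns, Chac1 and Gars) and in 1 of 5 that did not pass (Slc7a11), against 3.45% of all promoters.

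The unfolded protein response, the programme that enlarges the ER's folding capacity, moved the same way. Of 28 members tested 18 rose and 0 fell (limma, with 21 and 0 at an unadjusted p under 0.05). That was 64.3%, against 14.2% of all genes, with a median difference of 0.35. Hspa5 read 12.94, 12.86, 12.88, 12.86 and 12.76 with LPS and 13.2, 13.34, 13.36, 13.15 and 13.15 with EGTA. The lowest EGTA level lay above the highest level without it, and the rise was 0.38 ± 0.04 (1.3-fold; limma adjusted p = 0.00157). Herpud1, a protein of ER-associated degradation, read 9.64, 8.7, 8.49, 8.47 and 8.36 with LPS and 10.91, 10.18, 9.77, 9.65 and 9.34 with EGTA. In both conditions it was highest at 2 h, and its rise of 1.24 ± 0.07 (2.36-fold; adjusted p = 0.00011) was the largest of the list after Trib3.

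Dnajb9, a BiP cochaperone, rose by 0.66 ± 0.07, and Pdia6 by 0.57 ± 0.07 with no overlap of levels. Xbp1, a transcription factor of the response, had a difference of 0.47, and the chaperone Calr, a calcium-binding protein of the ER, one of 0.25 ± 0.05. The call of Calr was lost without the arrays of 4, 6 or 12 h (limma adjusted p of 0.0518, 0.0589 and 0.0526). The list's median was between 0.25 and 0.47 at all 5 times and 0 without LPS. The ER stress element was found in 7 of 17 risen members with a promoter in the table and in 1 of 8 that did not pass. Ddit3 and Trib3 stand in this list and in the Atf4 list, so the counts of both lists share these genes.

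Sterol and fatty acid synthesis genes, targets of the SREBP factors, rose in 13 of 25 members tested, and 0 fell. That was 52%, against 14.2% of all genes (limma, with 19 and 0 at an unadjusted p under 0.05). The median difference was 0.52. Pmvk, phosphomevalonate kinase, read 8.62, 9.05, 9.28, 9.06 and 9.09 with LPS and 9.08, 9.97, 10.04, 9.8 and 9.51 with EGTA, a rise of 0.66 ± 0.08. Mvd, which makes isopentenyl diphosphate, read 8.58 to 8.86 with LPS and 9.07 to 9.45 with EGTA with no overlap, a rise of 0.53 ± 0.08. Stard4, a sterol carrier, rose by 0.67 ± 0.09, and lanosterol synthase Lss by 0.54 ± 0.08, while its other, dim probe sets gave -0.11 and 0.63. Over time the median of these genes went from 0.13 at 2 h to 0.78 at 24 h, and it was -0.01 without LPS. Fewer members passed without the arrays of 6 h (6), 12 h (5) or 24 h (8), and with the RNA integrity number in the fit 5 passed and the median was 0.18. The lower RNA integrity of the 12 and 24 h EGTA arrays, 8.8 and 8.7, goes with the larger late differences, so that late time with EGTA and lower RNA integrity cannot be told apart.

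**Figure D2:**
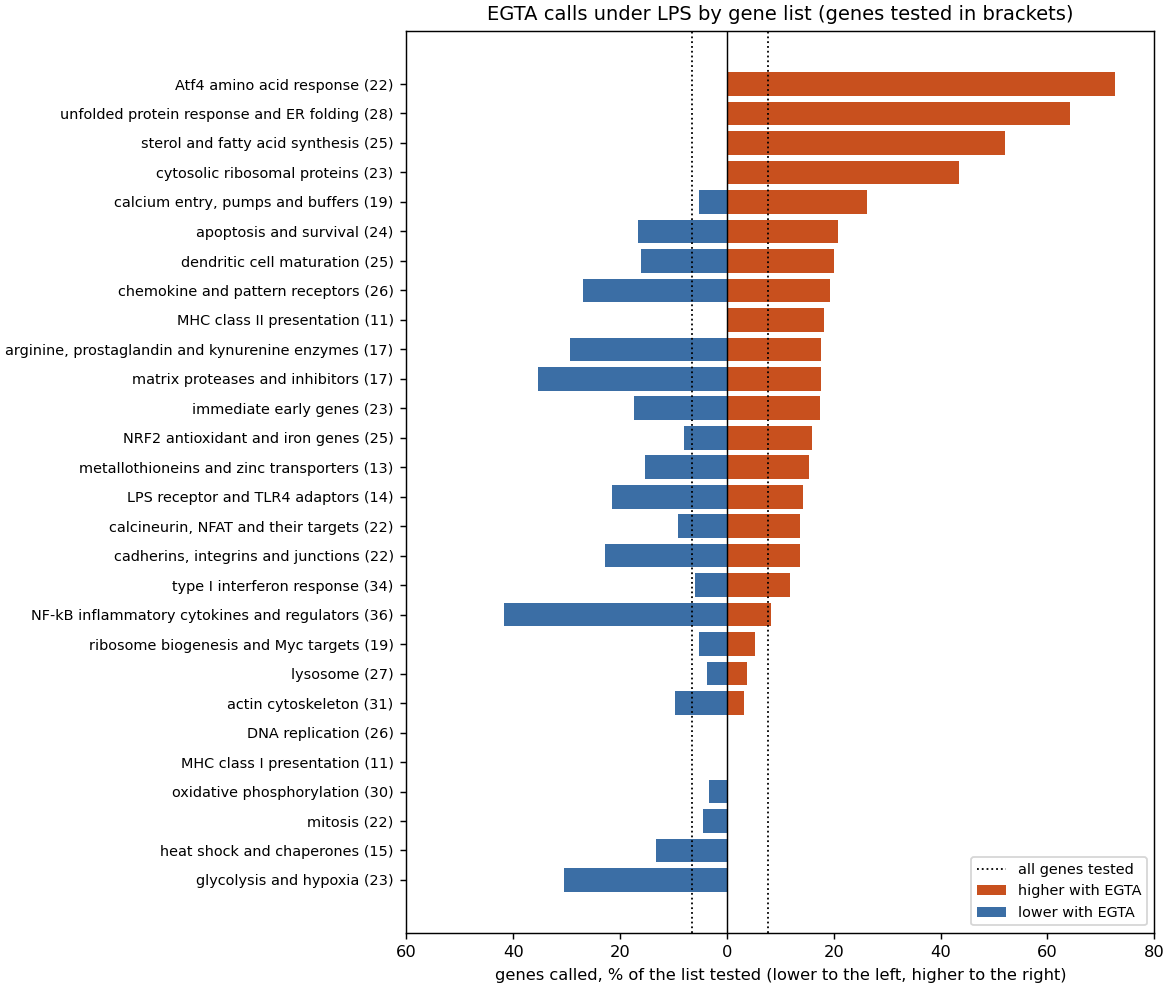
Share of each pathway list that passed the threshold (%, horizontal), higher with EGTA to the right and lower to the left, with the genes tested in brackets and the shares over all genes tested as dotted lines. The Atf4, unfolded protein response, sterol and ribosomal protein lists had calls on the higher side alone, and the NF-kB list had the largest share on the lower side.

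Cytosolic ribosomal proteins showed a small and even difference. Of 23 tested, 10 rose and 0 fell (limma, with 18 and 0 at an unadjusted p under 0.05). That was 43.5%, against 14.2% of all genes. All 23 estimates were above 0, and the median was 0.14. Rps19 read 12.46 to 12.79 with LPS and 12.66 to 12.95 with EGTA, a rise of 0.19 ± 0.03 (limma adjusted p = 0.0545 without the 6 h arrays). Calls were few without the arrays of 4, 6, 12 or 24 h (1, 0, 1 and 6), with median centring in place of quantile scaling (2, median 0.10) and with unscaled values (3, median 0.17). Npm1, a nucleolar chaperone, rose by 0.32 ± 0.04, 1 of 2 calls among 19 genes of ribosome biogenesis (10.5%).

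The inflammatory NF-kB targets were lower with EGTA, unevenly. Of 36 tested, 15 fell and 3 rose, with a median of -0.20, where 6.46% of all genes tested fell. The members that fell were mostly chemokines, cytokines and enzymes. Tnf read 13.25, 13.11, 12.58, 12.54 and 11.27 with LPS and 12.72, 12.28, 11.82, 11.43 and 10.27 with EGTA, against 5.31 without LPS. Both conditions were high at 2 h and declined, with differences of -0.52 at 2 h and -1.1 at 12 h at the extremes, and the difference was -0.85 ± 0.08 (1.8-fold; limma adjusted p = 0.000687). Ccl3, the chemokine MIP-1 alpha, read 13.46 to 13.82 with LPS and 12.83 to 13.17 with EGTA with no overlap. Its difference of -0.63 ± 0.04 (limma adjusted p = 0.00011) came from differences of -0.56 to -0.72 at the single times. Without LPS the array labelled EGTA differed in Ccl3 by -0.65, so the gap was not confined to the LPS arrays.

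Ccl2, the monocyte chemokine MCP-1, fell by 1.13 ± 0.19, and Ptgs2, cyclooxygenase-2, fell by 0.67 ± 0.10, both with no overlap. With RNA integrity in the fit Ccl2 differed by -0.65 (limma adjusted p = 0.0181). Il6 read 13.64, 13.82, 13.52, 13.37 and 13.18 with LPS and 13.44, 13.64, 13.28, 13.2 and 13.06 with EGTA. That fall was small, -0.18 ± 0.03 (1.14-fold), and its call was lost without the 6 h arrays (limma adjusted p = 0.0538). Il12b differed by -0.25 ± 0.12 and Il10 by -0.14 ± 0.26, and neither passed the threshold (limma adjusted p of 0.215 and 0.756). The difference of Il10 was -0.74 at 2 h and 1.2 at 24 h, so its mean joins opposite signs, and at 2, 4 and 6 h alone it was -0.64 and passed (limma adjusted p = 0.0142), as it did with RNA integrity in the fit (-0.82, 0.029). The members that rose were the adhesion molecule Icam1 (0.45 ± 0.05), the NF-kB subunit Relb (0.30) and Tnfaip2 (0.40). The kappa B site was found in 4 of 10 fallen members with a promoter in the table, in 5 of 14 that did not pass and in 0 of 2 that rose.

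**Figure D3:**
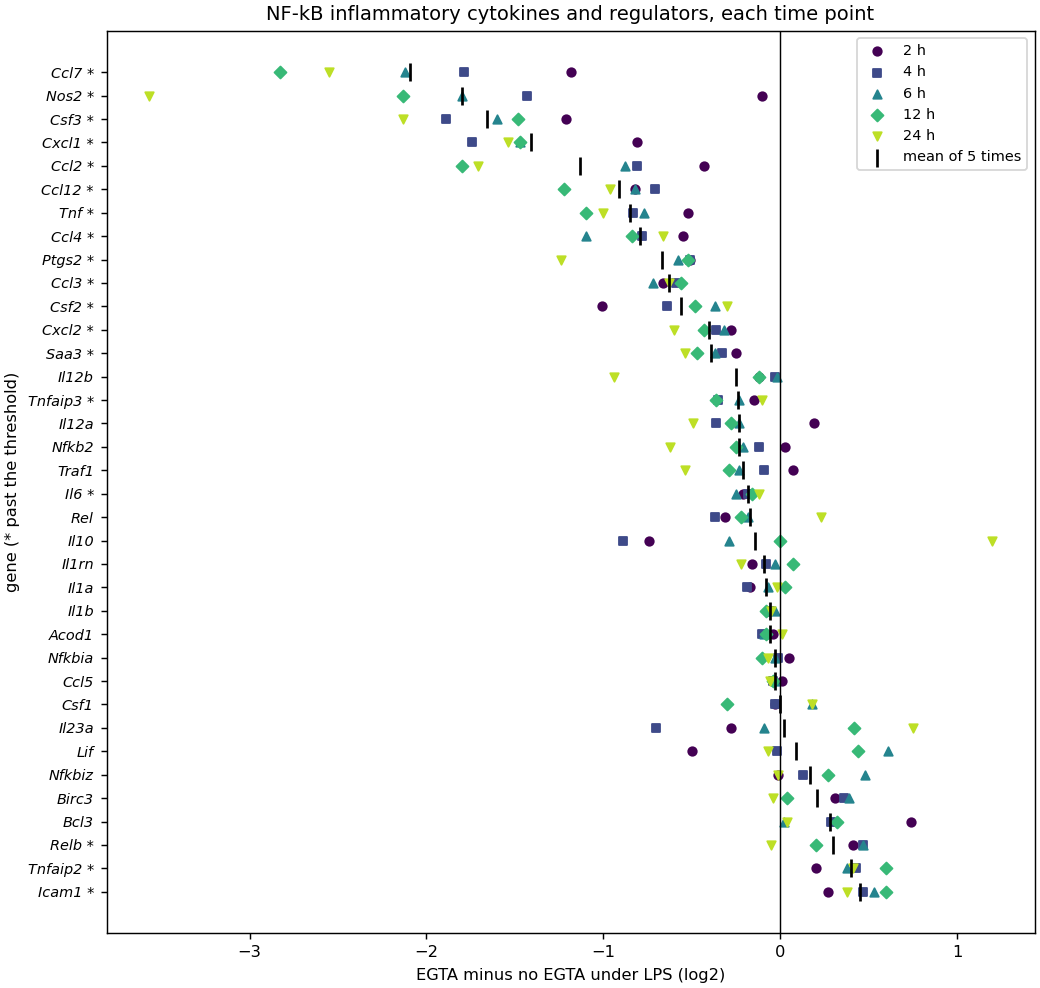
Difference between LPS with EGTA and LPS alone (log2, horizontal) for each of the 36 NF-kB list members tested, with 1 symbol per time, the mean as a bar and a star on members past the threshold. Ccl7 lies furthest to the left with a mean of -2.09 and Icam1 furthest to the right with 0.45.

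Enzymes of arginine, prostaglandin and kynurenine metabolism fell in 5 and rose in 3 of 17 members, with a median of -0.24. Together 47.1% passed, against 14.2% of all genes. Without the arrays of 12 h 2 fell and 2 rose, without those of 4 or 6 h 1 rose, with RNA integrity in the fit 3 fell and the median was -0.14, and at 12 and 24 h alone 8 fell with a median of -0.55. Besides Nos2, the cationic amino acid transporter Slc7a2, which supplies arginine, read 11.5, 12.51, 12.72, 13.09 and 13.0 with LPS and 11.02, 11.91, 12.04, 11.65 and 10.76 with EGTA. The difference was -0.49 at 2 h and -2.24 at 24 h, and the difference of -1.09 ± 0.23 lost its call without the 12 h arrays (limma adjusted p = 0.0724) and was -0.45 with RNA integrity in the fit. Arg2, the mitochondrial arginase, fell by 0.71 ± 0.09, and without LPS its difference was -0.57. Ornithine decarboxylase Odc1 fell by 0.28 ± 0.06, which did not pass without the 6 or 12 h arrays (limma adjusted p of 0.094 and 0.082). Ptges, the prostaglandin E synthase, differed by -0.90 ± 0.30 and did not pass (adjusted p = 0.079). The aryl hydrocarbon receptor Ahr, which binds kynurenine, read 9.03 to 9.61 with LPS and 9.63 to 10.08 with EGTA, a rise of 0.53 ± 0.08 with no overlap. A dimmer probe set of Ahr gave 0.16.

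Metallothioneins bind zinc and copper, and zinc raises their transcription through MTF1. Mt1 read 13.08, 12.65, 12.27, 11.93 and 13.36 with LPS and 12.69, 11.78, 11.1, 10.08 and 10.87 with EGTA, and Mt2 read 12.49, 12.32, 12.2, 11.65 and 13.14 against 11.95, 11.28, 10.77, 10.45 and 10.6. Both were lower with EGTA at all 5 times, with differences of -0.39 and -0.54 at 2 h and -2.49 and -2.54 at 24 h, while without LPS the array labelled EGTA differed by -0.13 and -0.04. The mean differences were -1.35 ± 0.25 (limma adjusted p = 0.0114) and -1.35 ± 0.23 (0.00722), and that of Mt1 missed the threshold without the 12 h arrays (0.0527). With RNA integrity in the fit the differences were -0.68 and -0.88 (limma adjusted p of 0.0361 and 0.0479). Of the 13 list members tested, the others that passed were zinc transporters that rose, Slc39a7 of the ER (0.48 ± 0.06) and Slc30a5 of the Golgi (0.26 ± 0.07), the latter lost without the arrays of any of 4, 6, 12 or 24 h (adjusted p of 0.0812, 0.101, 0.131 and 0.072). Slc30a1, a zinc exporter and MTF1 target, differed by 0.08 ± 0.12 and did not pass (limma adjusted p = 0.686). Together 30.8% of the 13 members passed, against 14.2% of all genes. The metal response element was found in both fallen members, in 1 of 2 risen and in 2 of 7 that did not pass, against 21.4% of all promoters.

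Genes of calcium handling rose in 5 and fell in 1 of 19 members (31.6%, against 14.2% of all genes), with a median of -0.01. Without the arrays of 4, 6 or 12 h 1 rose. The risen ones were the ER chaperones Calr and Canx, the calcium-binding S100a8 and S100a9, and the phospholipase Plcg2, with differences of 0.16 to 0.25. Calr and Canx also stand in the unfolded protein response list, and S100a8 and S100a9 among the granulocyte markers, so these calls are counted in both places. In the fit with RNA integrity 2 rose and 0 fell. S100a10, an annexin partner, fell by 0.43 ± 0.11, a call lost without the arrays of 6, 12 or 24 h (limma adjusted p of 0.113, 0.0873 and 0.0611). S100a8 (0.16 ± 0.04) and Plcg2 (0.22 ± 0.05) lost theirs without the arrays of 4, 6 or 12 h (adjusted p of 0.0731 to 0.151), S100a8 also without those of 2 h (0.0741).

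Genes of calcineurin, NFAT and their targets were divided, with 3 of 22 higher (1 without the arrays of 4 or 6 h), 2 lower and a median of 0.04. Together 22.7% passed, against 14.2% of all genes. Il2, the classical NFAT target, read 8.8 at 2 h of LPS and 6.81 with EGTA, and at or below 4.76 on the other 8 arrays. It thus stood well above the lowest possible level at 2 h alone, where the difference was -2.00, and over all times the difference of -0.50 ± 0.35 did not pass (limma adjusted p = 0.375). Gadd45g, a stress gene, read 6.78, 8.84, 9.08, 8.84 and 8.75 with LPS and 6.55, 8.09, 7.74, 7.91 and 8.09 with EGTA, a difference of -0.78 ± 0.14 (adjusted p = 0.00873). Rcan1, a feedback inhibitor that NFAT induces, differed by -0.18 ± 0.09 and did not pass (0.25). Egr1 rose by 0.59 ± 0.13, a call lost without the arrays of 4 or 6 h (0.074 and 0.0663), and Egr2 (0.08 ± 0.17) and Nr4a1 (0.23 ± 0.27) did not pass (0.78 and 0.606). The difference of Nr4a1 was 1.24 at 2 h and -1.02 at 24 h.

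Of 23 immediate early genes 4 rose and 4 fell (34.8%, against 14.2% of all genes). Without the arrays of 4 or 6 h 2 rose and 2 fell, without those of 12 h 3 and 1. The phosphatases Dusp1 and Dusp2, which switch off MAP kinases, rose by 0.73 ± 0.10 and 0.79 ± 0.10. Atf3, a repressor of inflammatory genes, read 10.78, 11.31, 11.07, 11.36 and 11.96 with LPS and 10.07, 10.49, 10.21, 10.36 and 11.28 with EGTA, an even difference of -0.81 ± 0.06 (limma adjusted p = 0.000248). Maff, a small Maf factor, fell by 0.38 ± 0.07 (0.0519 without the 12 h arrays).

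The interferon-stimulated genes had close to the background share of calls. Of 34 tested, 4 rose and 2 fell, 17.6% against 14.2% of all genes, with a median of -0.05. At an unadjusted p under 0.05 in limma 4 rose and 9 fell, and 24 estimates were below 0. With 1 time left out 2 to 7 of the 34 genes passed, 7 without the arrays of 2 h. The count was 2 without the arrays of 12 h and 3 without those of 4 or 6 h. Cxcl10, induced by IRF3 and interferon, read 13.29, 13.58, 13.51, 13.04 and 12.1 with LPS and 13.31, 13.6, 13.44, 13.11 and 11.98 with EGTA, against 6.31 without LPS. The differences at single times lay between -0.12 and 0.08, and the mean difference was -0.01 ± 0.04 (limma adjusted p = 0.845). Ifnb1 itself read 10.34, 8.25, 6.97, 6.18 and 5.41 with LPS and 9.91, 7.33, 6.04, 6.01 and 5.71 with EGTA. Its differences were -0.44, -0.91 and -0.93 at 2, 4 and 6 h, and the mean of -0.43 ± 0.18 did not pass (limma adjusted p = 0.143). Ifnb1 passed as lower at 2, 4 and 6 h alone (-0.76, adjusted p = 0.00691), without the 24 h arrays (-0.61, 0.0223) and with RNA integrity in the fit (-0.87, 0.00806).

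Cxcl9 and Cxcl11, which bind the receptor CXCR3 as Cxcl10 does, were higher with EGTA. Cxcl9 read 8.4, 9.44, 8.98, 8.57 and 7.85 with LPS and 9.05, 10.4, 10.28, 9.6 and 8.55 with EGTA, a rise of 0.93 ± 0.09 (1.9-fold; limma adjusted p = 0.000854), and Cxcl11 rose by 0.36 ± 0.06. The antiviral Parp14 rose by 0.19 ± 0.04 (lost without the arrays of 4 or 12 h, adjusted p of 0.0815 and 0.0911). The ubiquitin ligase Trim21 fell by 0.34 ± 0.07, which did not pass without the arrays of 6 or 12 h (0.0513 and 0.0549).

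Among genes of dendritic cell maturation 5 of 25 rose and 4 fell (36%, against 14.2% of all genes), with a median of 0.02. Without the arrays of 4 or 6 h 2 rose. The costimulatory receptors Cd40 and Cd86 differed by -0.09 ± 0.05 and 0 ± 0.07 (limma adjusted p of 0.278 and 0.988). Cd40 read 7.35 without LPS, between 11.42 and 12.87 with LPS, and between 11.41 and 12.81 with EGTA. Ccr7, the receptor that guides migration to lymph nodes, read 11.27, 12.42, 12.34, 12.64 and 12.57 with LPS and 11.62, 12.66, 12.59, 12.81 and 12.94 with EGTA, a rise of 0.28 ± 0.04. The members that fell were the costimulatory ligands Tnfsf4 (-0.69 ± 0.06) and Tnfsf9 (-0.49 ± 0.08), the SLAM receptor Slamf7 (-0.56 ± 0.06) and Cd200 (-0.38).

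Class I presentation genes had 0 of 11 calls in limma (1 at an unadjusted p under 0.05) with a median of -0.02. Of 11 class II genes 2 rose (18.2%, against 14.2% of all genes called), and all 11 estimates were above 0, with a median of 0.08. These were the class II transactivator Ciita (0.31 ± 0.08) and H2-Oa (0.44 ± 0.09), a chain of the peptide-loading modulator. Ciita lost its call without the arrays of 2, 4, 12 or 24 h (limma adjusted p of 0.0564 to 0.139) and H2-Oa without those of 12 h (0.0605). Neither passed with RNA integrity in the fit (limma adjusted p of 0.195 and 0.105), where the class II median was 0. That median was 0.05, 0.01 and 0.04 at 2, 4 and 6 h and 0.12 and 0.37 at 12 and 24 h in the separate times.

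Of 14 genes of the LPS receptor and its adaptors 3 fell, Cd14, Tlr4 and Cd180, and 2 rose, the LPS-binding protein Lbp (0.51) and Ikbke. That was 35.7% of the list, against 14.2% of all genes. Cd14 read 13.23, 13.06, 13.0, 12.79 and 13.28 with LPS and 13.02, 12.78, 12.71, 12.49 and 12.96 with EGTA, with differences of -0.21 to -0.31 at the 5 times. The difference of -0.28 ± 0.03 (1.21-fold; limma adjusted p = 0.00199) was small beside the loss in the Cd14-deficient cells, which read 4.28 to 5.83, close to the lowest possible level. Tlr4 fell by 0.29 ± 0.07, and its call was lost without the arrays of 4, 6 or 12 h (adjusted p of 0.0752, 0.0595 and 0.0605). Cd180, a TLR4-like receptor, fell by 0.54 ± 0.09, and the kinase Ikbke rose by 0.28 ± 0.06 (0.0713 and 0.0837 without the arrays of 4 or 6 h).

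Other receptors for chemokines and microbial ligands rose in 5 and fell in 7 of 26 (46.2%, against 14.2% of all genes). Cxcr4, the receptor for CXCL12, read 7.83, 6.98, 7.3, 8.55 and 9.45 with LPS and 8.94, 8.42, 9.14, 9.7 and 10.34 with EGTA, against 10.59 without LPS. It lay below its unstimulated level in both conditions, and with EGTA it was higher at each time, by 1.29 ± 0.12 (2.44-fold; limma adjusted p = 0.000727). The scavenger receptor Marco read 7.26 to 8.5 with LPS and 8.1 to 9.95 with EGTA, a rise of 1.29 ± 0.10. Tlr2 fell by 0.51 ± 0.06. The lectin Clec4d fell by 0.42 ± 0.04, and it differed by -0.39 without LPS.

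Adhesion genes were divided as well, with 3 of 22 higher and 5 lower (3 without the arrays of 4, 6 or 12 h). Together 36.4% passed, against 14.2% of all genes. Itgal, the alpha chain of LFA-1, read 7.62, 8.05, 8.04, 7.97 and 8.28 with LPS and 8.41, 8.74, 8.91, 9.23 and 9.14 with EGTA, with no overlap and a rise of 0.89 ± 0.09. Icam1, its ligand, rose as given above. F11r, junctional adhesion molecule A, rose by 1.1 ± 0.13, also with no overlap, though a dim second probe set gave -0.83. The junction scaffold Tjp1 fell by 0.85 ± 0.12. Cdh1, E-cadherin, whose homophilic bond needs calcium, read 9.36 without LPS and 5.89 at 12 h of LPS, and differed by 0.19 ± 0.12 with EGTA, which did not pass (limma adjusted p = 0.339).

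Of 17 matrix proteases and inhibitors 3 rose and 6 fell, 52.9% against 14.2% of all genes, and without the arrays of 4 h 2 rose and 3 fell, without those of 6 h 1 and 4. Beside Timp1, the protease Adamts1 read 7.37, 7.15, 7.36, 6.82 and 6.28 with LPS and 6.4, 6.2, 5.88, 5.91 and 4.9 with EGTA. Its difference was -1.14 ± 0.14, and -1.27 without LPS. Mmp19 fell by 0.61 ± 0.08. Mmp9, gelatinase B, rose by 0.44 ± 0.08. Among 31 actin cytoskeleton genes 1 rose and 3 fell, 12.9% against 14.2% of all genes. At 2, 4 and 6 h alone, and also with RNA integrity in the fit, 4 rose and 2 fell. Those that fell over all times were Zyx (-0.42 ± 0.07), Rhoc (-0.32 ± 0.05) and Actn4 (-0.26 ± 0.06). The call of Actn4 was lost without the arrays of 4, 6 or 12 h (limma adjusted p of 0.0907, 0.104 and 0.0954). The myosin heavy chain Myh9 rose by 0.34 ± 0.08 (limma adjusted p of 0.0613 to 0.0903 without the arrays of 2, 4 or 6 h). Its other probe sets gave smaller rises of 0.16, 0.26 and 0.05.

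Glycolysis and hypoxia genes fell in 7 of 23 members and rose in 0 (limma, with 14 and 1 at an unadjusted p under 0.05). That was 30.4%, against 14.2% of all genes. The median was -0.23, and 21 of 23 estimates were below 0. Slc2a1, the glucose transporter GLUT1, read 11.35, 10.17, 10.69, 11.13 and 12.23 with LPS and 10.59, 9.8, 10.45, 10.28 and 10.83 with EGTA. The lactate exporter Slc16a3 fell by 0.60 ± 0.10, Slc2a1 fell by 0.72 ± 0.15, lactate dehydrogenase Ldha fell by 0.37 ± 0.07 and hexokinase Hk2 fell by 0.27 ± 0.05. The list's median went from -0.08 at 2 h to -0.49 at 24 h. Without the arrays of 6 or 12 h 3 or 2 members fell, and Slc2a1 (adjusted p = 0.0617 without 12 h) and Ldha (0.0518 and 0.056 without 6 or 12 h) were among those lost. With the RNA integrity number in the fit 1 member fell and the median was -0.06.

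Among NRF2 and iron genes 4 of 25 rose and 2 fell (24%, against 14.2% of all genes), and 2 rose without the arrays of 6 or 12 h. Nfe2l2, which encodes NRF2, read 11.45 to 11.64 with LPS and 11.76 to 12.24 with EGTA, with no overlap and a rise of 0.50 ± 0.09. Glutathione reductase Gsr rose by 0.42 ± 0.07, while the haem-degrading enzyme Hmox1, also an NRF2 target, fell by 0.68 ± 0.16 (lost without the arrays of 4 or 12 h, limma adjusted p of 0.0546 and 0.101). The iron transporter Slc11a2 fell by 0.32 ± 0.06 on its brightest probe set, and the others gave -0.27 and 0.03. Tkt, transketolase, rose by 0.33 ± 0.08, which was lost without the arrays of 6 or 12 h (0.0802 and 0.0882). Nfe2l2, Hmox1 and Tkt differed by 0.35, -0.23 and 0.15 with RNA integrity in the fit. None of these passed there (limma adjusted p of 0.0554, 0.101 and 0.204).

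Apoptosis genes rose in 5 (3 without the arrays of 4, 6 or 12 h) and fell in 4 of 24. Together 37.5% passed, against 14.2% of all genes. Bcl2l11, the death-promoting protein BIM, read 11.84, 10.12, 9.2, 9.17 and 9.93 with LPS and 12.32, 11.1, 10.42, 10.23 and 10.46 with EGTA, a rise of 0.85 ± 0.11. Mdm2, which degrades p53, read 10.52, 11.46, 11.47, 11.34 and 11.23 with LPS and 10.29, 10.59, 10.42, 10.34 and 10.38 with EGTA, a difference of -0.80 ± 0.11. With LPS alone it stood above its unstimulated 10.31 at all 5 times, and with EGTA it lay between 10.29 and 10.59. The survival protein Birc2 rose by 0.44 ± 0.05. Of 15 heat shock genes 2 fell, Hspa1a (-0.68 ± 0.15) and Hspa1b (-0.72 ± 0.20), near-identical copies that a probe set may not tell apart. They were 13.3% of the list, against 14.2% of all genes called. Without the 12 h arrays neither passed (limma adjusted p of 0.0746 and 0.125), and Hspa1b also did not without those of 4 or 6 h (0.0919 and 0.0647). Hspa1a and Hspa1b were -0.3 and -0.24 with RNA integrity in the fit and did not pass (limma adjusted p of 0.104 and 0.37). Between the unstimulated arrays they differed by -1.39 and -0.32, so the gap was not confined to the LPS arrays.

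The lists of cell division and respiration had few calls. DNA replication had 0 of 26 in limma (5 at an unadjusted p under 0.05), mitosis 1 of 22 and oxidative phosphorylation 1 of 30, against 14.2% of all genes. The single calls were the checkpoint gene Mad2l1 (-0.27 ± 0.06; lost without the arrays of 6 or 12 h, limma adjusted p of 0.0681 and 0.0645) and cytochrome c Cycs (-0.30 ± 0.04). Of 27 lysosomal genes 1 rose, the regulator Tfeb (0.61 ± 0.11), and 1 fell, the protease Ctsk (-0.56 ± 0.08), the latter with no overlap of levels. Together they were 7.41% of the list, below the share of all genes.

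**Figure D4:**
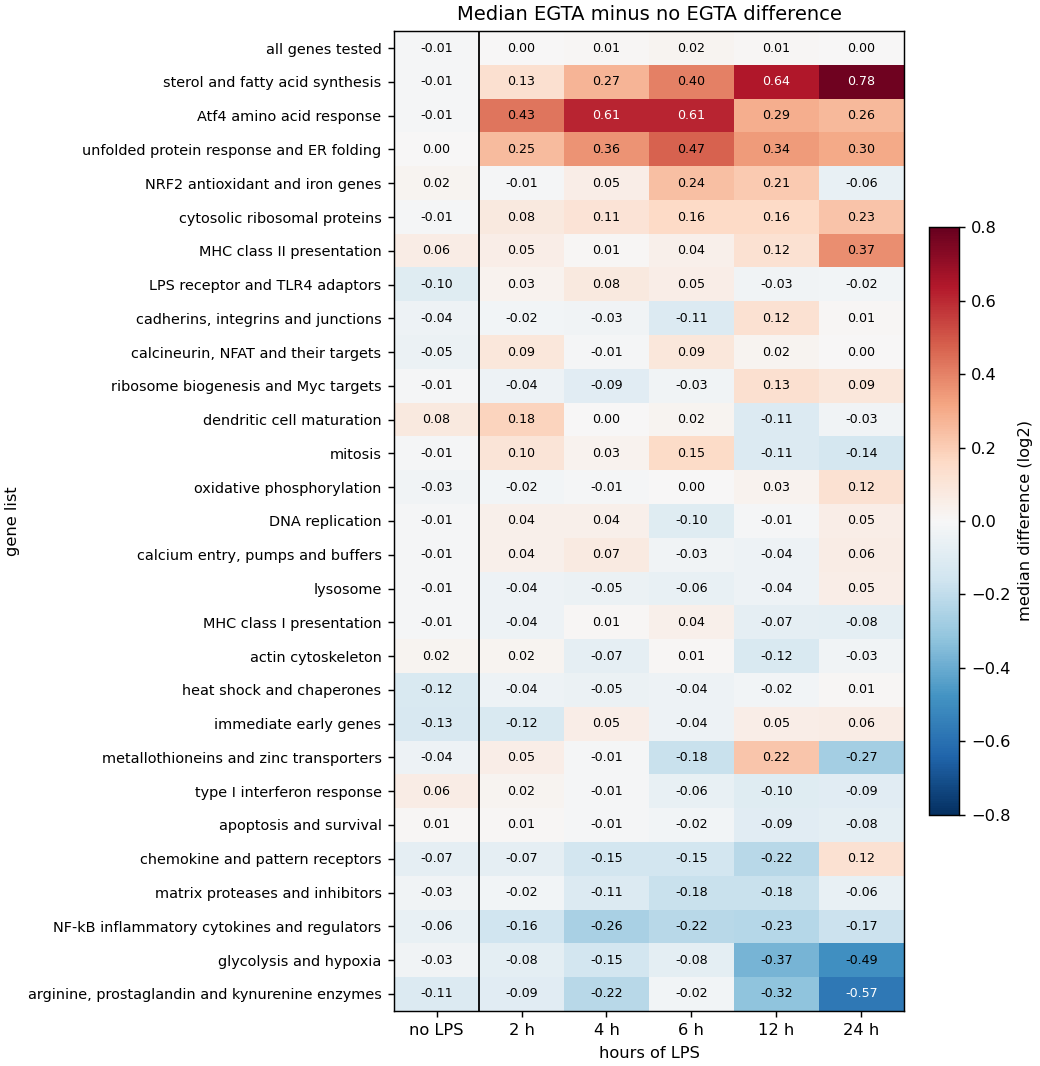
Median difference between EGTA and no EGTA (log2, colour and number) of each pathway list by hours of LPS, with the unstimulated arrays in the first column and all genes tested in the first row. The sterol list runs from 0.13 at 2 h to 0.78 at 24 h, the Atf4 list has its largest medians of 0.61 at 4 and 6 h, and the rows of all 3 of the sterol, Atf4 and unfolded protein response lists lie within 0.01 of 0 without LPS.

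Markers of the cell types that such cultures can hold had summed levels that overlapped between the conditions. Arrays measure pooled RNA, so fewer cells of a type and less RNA per cell cannot be told apart. Dendritic cell markers rose in 3 of 11 and fell in 0 (limma; 5 and 0 at an unadjusted p under 0.05), and their summed intensity was 23884 to 27018 with LPS and 25673 to 32841 with EGTA. Macrophage markers rose in 3 (1 without the arrays of 4 or 6 h) and fell in 1 of 11, with sums of 40892 to 47014 and 41459 to 48604. Mertk, a receptor for dying cells, rose by 0.61 ± 0.07. Granulocyte markers rose in 4 of 14 (2 without the arrays of 4, 6 or 12 h) and fell in 0. Their sums were 19661 to 41838 and 18891 to 46776. Of their estimates 7 were above 0 and 7 below, with a median of 0.01. At 12 and 24 h alone 1 rose and 2 fell. Of the dendritic cell, macrophage and granulocyte lists 27.3%, 36.4% and 28.6% passed, against 14.2% of all genes. Csf3r, the G-CSF receptor, rose by 0.75 ± 0.19, most of all at 24 h (1.76). Its call was lost without the arrays of 4, 6 or 12 h (limma adjusted p of 0.0665, 0.0766 and 0.114). The rise of Csf3r was 0.27 with RNA integrity in the fit and did not pass (limma adjusted p = 0.313), nor did that of S100a8 (0.0667).

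Mast cell and basophil markers were dim, with 7 of 12 not above the array median on 2 arrays. Of the 5 tested 2 fell (40%, against 14.2% of all genes called). These were Mcpt8 (-0.68 ± 0.10) and Cpa3 (-0.50 ± 0.11), the latter lost without the arrays of 4, 6 or 12 h (limma adjusted p of 0.0595 to 0.0724). Of T and NK cell markers 11 of 12 on the array did not pass the filter and the other had no call. B cell markers had 2 tested and 1 fall (Blnk, -0.40 ± 0.07, which myeloid cells also express), plasmacytoid markers 3 tested with no call (limma; 1 at an unadjusted p under 0.05), erythroid markers 2 tested with 1 rise (Car2, 0.35 ± 0.10) and melanoma markers 2 tested with 1 fall (Mitf, -0.49 ± 0.08, which myeloid cells express too). Car2 lost its call without the arrays of 2, 4, 6 or 12 h (0.0643 to 0.114), and Blnk without those of 6 or 12 h (0.0513 and 0.0512). With LPS and with EGTA the sums were 1421 to 3089 and 1325 to 2624 for mast cell, 288 to 630 and 319 to 617 for T and NK cell, 1997 to 3869 and 1936 to 3081 for B cell, 1885 to 7046 and 1812 to 6456 for plasmacytoid, 2532 to 5399 and 2947 to 6392 for erythroid and 977 to 1203 and 726 to 996 for melanoma markers. The part of these markers in the differences above was not tested.

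Whether the EGTA difference changed with time was asked by an interaction of EGTA with late (12 and 24 h) against early (2, 4 and 6 h) times. Of 7240 genes 6 passed (0.0829%), while 13.7% had an unadjusted p under 0.05. Hebp1, a haem-binding protein, read 9.16, 8.29, 7.74, 7.64 and 7.09 with LPS and 8.97, 8.06, 7.69, 9.02 and 9.1 with EGTA. The conditions ran together to 6 h and were 1.39 and 2.01 apart at 12 and 24 h, and the late minus early difference was 1.85 ± 0.19 (limma adjusted p = 0.0322).

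The other 5 genes were lower late. Arg1, cytosolic arginase, read 12.38, 10.93, 9.89, 8.43 and 10.15 with LPS and 12.28, 10.71, 9.59, 7.29 and 8.52 with EGTA, with late minus early at -1.19 ± 0.15. For Ccl2 the value was -1.05 ± 0.13, for the large scaffold protein Ahnak -0.99 ± 0.12, for the endocytic receptor Lrp1 -0.99 ± 0.11 and for Hmox1 -0.92 ± 0.10, with adjusted p of 0.0322 to 0.0435. Ahnak and Lrp1 have very long transcripts, and the EGTA arrays of 12 and 24 h had the RNA integrity numbers 8.8 and 8.7, so that late time with EGTA and lower RNA integrity cannot be told apart. The count of 6 rested on single times. It was 1 without the arrays of 2 h, 0 without those of 4, 6 or 24 h (693, 825 and 643 at an unadjusted p under 0.05) and 237 without those of 12 h.

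**Figure D5:**
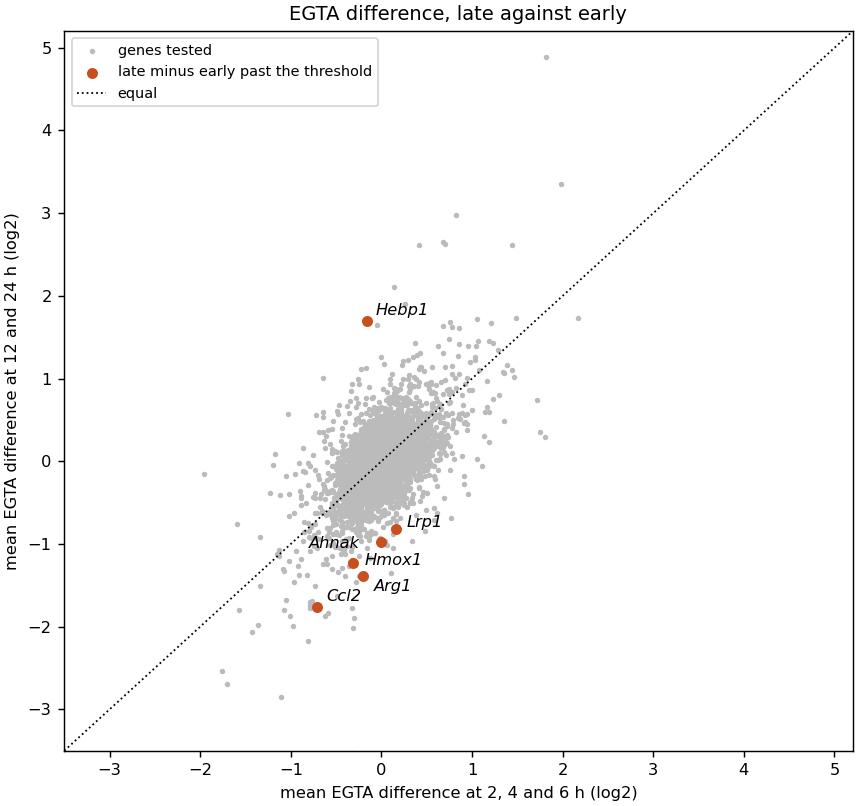
Mean EGTA difference at 12 and 24 h (log2, vertical) against that at 2, 4 and 6 h (log2, horizontal), 1 point per gene tested, with the 6 genes past the threshold of the late against early test in orange. Hebp1 lies above the line of equal differences and Ahnak, Lrp1, Hmox1, Arg1 and Ccl2 below it.

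To see how EGTA bore on genes that LPS induces, 179 genes were taken that stood at least 2-fold above the unstimulated level on all 5 LPS arrays of the Cd14-deficient cells, which the EGTA comparison does not use. The choice covers only induction seen without Cd14. Nos2, Atf3 and Gja5, which LPS raised in wild type cells, are not in it. With EGTA 55 of the 179 genes fell (30.7%, against 6.46% of all genes tested) and 22 rose (12.3%, against 7.78%). Their median difference was -0.14. Of the 46 genes induced at least 4-fold, 17 fell and 1 rose. Of 53 genes repressed at least 2-fold, 7 fell and 7 rose. With unscaled values 32 of the 179 genes fell and 12 rose.

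The Cd14-deficient cells share the wild type LPS arrays with the EGTA comparison, so the values are only set side by side, and the difference between EGTA and Cd14 deficiency was tested in a fit of all 15 LPS arrays (2152 genes passed, 29.7% of those tested). For Fst the difference from wild type was -2.07 with EGTA and 0.47 without Cd14, and for Timp1 it was -1.61 and 0.51. EGTA and Cd14-deficient levels differed for both (limma adjusted p of 4.82e-07 and 1.22e-07). Kcnn4 gave -1.68 and 0.07 (8.55e-06), and Mt1 -1.35 and -0.04 (0.00104). Trib3 gave 1.33 and -0.31 (8.62e-05), and Tgfbr1 1.99 and 0.60 (0.000144).

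For Ccl7 the values were -2.09 and -2.44, for Ccl2 -1.13 and -1.15, for Atf3 -0.81 and -0.90 and for Herpud1 1.24 and 1.09. There the EGTA and Cd14-deficient levels differed by 0.34 ± 0.20, 0.02 ± 0.19, 0.09 ± 0.07 and 0.15 ± 0.11 (SE), which did not pass (limma adjusted p of 0.22, 0.952, 0.367 and 0.323), a result that does not show them to be equal. The interferon targets Cxcl10 (-0.01 and -0.85) and Cxcl9 (0.93 and -1.03) were higher with EGTA than without Cd14 (adjusted p of 6.81e-05 and 1.58e-06).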

How the data were processed

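RNA of dendritic cell cultures was hybridised to Affymetrix mouse arrays, 1 array per condition and time. The authors deposited 1 linear intensity per probe set and array, made with MAS5 per the submitters' processing notes; the sources used here give neither its version nor its scaling target. Between the 18 arrays, trimmed means differed by up to 1.43 times, so the values were quantile-normalised and log2(value + 16) was taken from the deposited intensities. Such scaling removes any global shift. Of 22690 probe sets, 20393 named 1 gene in the platform annotation, 691 several and 1606 none. A gene was read from its brightest probe set, which gave 12394 genes, and tested if above the array median on at least 2 of the 10 arrays (7240 genes).

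limma 3.58.1 (R 4.3.3; intensity trend, 4 residual degrees of freedom, 4.62 prior) was fitted with LPS time as a block, and Benjamini-Hochberg adjusted p under 0.05 was called. Same-time arrays were paired by the labels' LPS time, and their deviations from the condition means correlated at 0.68 to 0.86. On data simulated for the EGTA comparison of 7240 genes, 37, 47, 50 and 50 of 50 genes each changed by 0.5, 1, 2 and 3 (log2) were recovered, with 7 false calls. The simulated noise was independent between genes and times. Errors that genes of an array share were not simulated, so the 7 do not give the false calls among the 1031.

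The members, the 37 gene lists and the named genes were chosen with earlier results of these data known. Named were the 12 largest rises and falls of 1 sign at all 5 times, up to 4 genes of smallest p in each list, a set of pathway genes, and up to 8 late against early genes each way; other names are said to be later choices or stand only as list members with their value. Alternatives were unscaled values, median centring, pseudocounts of 1 and 64, other filters, mean probe sets, no trend, robust and 15-array fits, each time left out, no block, early or late times alone, and RNA integrity as a covariate.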

Additional observations from a re-analysis of the deposited data

Results flagged for a closer look

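Among 172 named genes, 17 (9.88%) had 1 time whose EGTA difference stood apart from the other 4 by more than Dixon's 95% critical value for 5 values, where chance gives about 1 in 20. At 2 h these were smaller than at the later times for Actn4 (-0.02), Cxcl1 (-0.81), Mdm2 (-0.23), Mpzl2 (0.49), Rpl27 (0.08), Rps15 (0.08) and Slamf7 (-0.27), and larger for Cxcl11 (0.58) and Il2 (-2.00). At 6 h Plcg2 (0.34) and S100a8 (0.33) were larger than at the other times, and at 12 h Mcpt8 (-1.03). At 24 h Car2 (0.86), Cox4i1 (0.29), Il12b (-0.94) and Ptgs2 (-1.24) were larger and Cpa3 (-0.07) smaller. The EGTA difference itself changed between the early and the late times in 6 genes by limma's interaction test: Hebp1 (1.85), Ahnak (-0.99), Arg1 (-1.19), Ccl2 (-1.05), Hmox1 (-0.92) and Lrp1 (-0.99).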

How the results depend on the processing

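Against 1031 genes called, fits that left out 1 time called 409 to 1060, the fit with no replicate block 11, that of 12 and 24 h alone 582, that with RNA integrity 610, that with no filter 727, that with no trend 767 and that with unscaled values 864. The time pairing is described with the processing; without it 117 of the named calls were lost, and with RNA integrity 35. The late against early count of 6 was 62 with unscaled values and 0 with no filter, no trend or the 15-array fit (limma; 1244, 885 and 841 at an unadjusted p under 0.05), and 0 to 237 with 1 time left out. Of the 179 LPS-induced genes 55 fell and 22 rose, against 17 and 1 of those induced 4-fold and 32 and 12 with unscaled values. No gene whose estimate changed sign was called in the full comparison, and none was under the setting that turned it, while Hebp1, Ahnak and Lrp1 passed at 12 and 24 h alone (limma; 1.70, -0.98 and -0.82). With unscaled values Cd86 was 0.02, with mean probe sets 0.10. At 2, 4 and 6 h alone Ahnak was 0, Cd86 0.08, Cdh1 0, Hebp1 -0.16, Itgax -0.06 and Lrp1 0.16. At 12 and 24 h alone Ifnb1 was 0.07, Il10 0.60 and Nr4a1 -0.45. With RNA integrity Ahnak was 0.09, Cd86 0.07, Cdh1 -0.03, Cxcl10 0, Hebp1 -0.34, Il12b 0.03, Itgax -0.14 and Lrp1 0.24. With 1 time left out the estimates ran from -0.07 to 0.06 for Cd86, -0.48 to 0.04 for Il10, -0.02 to 0.54 for Nr4a1, -0.03 to 0.30 for Egr2, -0.04 to 0.01 for Cxcl10 and 0 to 0.18 for Slc30a1. The cause was not tested. Dim genes near the lowest possible level carry the least precise differences.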
